A study of Mus musculus with 4 samples.

Results

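RNA-seq of regulatory T (Treg) cells from the mouse large intestine (LI) was examined for 10 receptor genes of the immunoglobulin superfamily that carry costimulatory or coinhibitory signals in T cells. They were chosen by name: Cd28, Icos and Cd226, which encode costimulatory receptors, and Ctla4, Pdcd1, Lag3, Havcr2, Tigit, Btla and Cd96, which encode receptors that are mostly coinhibitory. These 10 genes are among 53379 in the deposited table. The 10 all passed the filter for testing, which kept 7639 protein-coding genes whose mean FPKM was above 5 in the control or the KO group, and every one was above 0 in every library. FPKM is the number of fragments per kilobase of transcript and scaled to the mapped fragments of the library, so levels can be set side by side between genes.

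The experiment asked what Treg cells express when they lack Setd2, the enzyme that trimethylates histone H3 at lysine 36. The KO mice were Foxp3Cre-YFPSetd2f/f and the control mice were Foxp3Cre-YFPSetd2f/+, so mice of both groups carried a Cre recombinase with yellow fluorescent protein under the Foxp3 locus, which is active in Treg cells, and the control cells could lose 1 of the Setd2 copies. The labels name no treatment. CD3+CD4+YFP+ cells were sorted from the LI into 2 control and 2 KO libraries, each from a pool of 2 to 3 littermate mice on the C57BL/6 background. For mice in general the methods give an age of 6 to 12 weeks and the use of both sexes, and they do not give the sex of each pool. The spread within a group is therefore the spread between 2 pools.

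A T cell reads an antigen through its receptor and a second set of signals through these molecules. CD28 and CTLA-4 compete for the ligands CD80 and CD86 on antigen-presenting cells, with CD28 promoting activation and CTLA-4 taking the ligands away, and ICOS is a relative of CD28 with a ligand of its own. TIGIT, CD96 and CD226 compete in the same manner for the poliovirus receptor, while PD-1, LAG-3, TIM-3 and BTLA dampen signals after activation. Treg cells, which restrain other T cells and prevent inflammation of the gut, carry CTLA-4 constitutively and use it to suppress.

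The sums of FPKM lay between 774923 and 774999 in the 4 libraries, which followed a common distribution of values, and their depth is unknown. The FPKM of the targeted Setd2, which covers the whole gene and not the floxed part alone, was 38.19 and 27.36 in control libraries 1 and 2 and 26.33 and 36.30 in KO libraries 1 and 2, so it does not check the labels. The 8 T cell and Treg markers summed to 2332 to 2355 FPKM in control and 2362 to 2406 in KO libraries, and none was below 1 FPKM in every library. Of the 6 that were tested, Ikzf2, which encodes the Treg factor Helios, fell, with 120.75 and 115.57 in the control and 84.12 and 98.36 in the KO libraries (log2 fold change -0.37, adjusted p = 0.222 by limma). Il2ra had 183.66 and 180.37 in the control and 152.14 and 162.77 in the KO libraries, which did not overlap, but was not called (log2 fold change -0.21, adjusted p = 0.392). Cd3d (214.24 and 214.24 against 243.95 and 252.04) and Cd3g (604.84 and 594.72 against 634.91 and 646.76) were higher in both KO libraries. Neither was called (adjusted p = 0.369 and adjusted p = 0.699 by limma). The groups overlapped for Cd4, Cd3e and Trac. Foxp3 was listed at only 2.62, 5.61, 4.66 and 3.05 in control 1, control 2, KO 1 and KO 2. The summed markers of B and plasma cells, most of it the antibody light chain Igkc, reached 885 to 1346 FPKM in control and 1066 to 1231 in KO libraries, which overlapped. Summed epithelial markers were 41.9 to 43.1 in control and 36.0 to 40.4 in KO libraries, and 4 of these 6 markers were below 1 FPKM in every library, while Epcam fell (28.65 and 30.81 against 19.58 and 21.13) and Lgals4 was not called (14.12 and 11.02 against 20.12 and 14.64). Summed stromal and endothelial markers were 36.5 to 37.7 in control and 43.8 to 50.8 in KO libraries, and all but Pecam1, which rose, were below 1 FPKM in every library, or 6 of 7. The part of Treg makeup and of these other cells in the results was not tested, and in bulk RNA fewer cells that express a gene cannot be told apart from less of its RNA per cell.

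Ctla4 and Pdcd1 had the smallest p-values of the 10 genes in the upward and the downward direction, so their proximal promoters are shown. Each run holds the 250 bases before the RefSeq start on the gene's own strand (GRCm38.p6, 5′ to 3′), and capitals mark matches to the core of the motif of NFAT, the factor that calcium signals from the T cell receptor bring into the nucleus. The core was searched as GGAAA on both strands, so a match on the other strand reads TTTCC.
Ctla4 (chr1:60908775-60909024, + strand): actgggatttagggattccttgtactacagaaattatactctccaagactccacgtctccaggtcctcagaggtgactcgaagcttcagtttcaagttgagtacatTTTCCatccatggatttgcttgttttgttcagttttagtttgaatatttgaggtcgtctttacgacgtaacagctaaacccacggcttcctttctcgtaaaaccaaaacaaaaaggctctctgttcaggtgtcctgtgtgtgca
Pdcd1 (chr1:94052554-94052803, - strand): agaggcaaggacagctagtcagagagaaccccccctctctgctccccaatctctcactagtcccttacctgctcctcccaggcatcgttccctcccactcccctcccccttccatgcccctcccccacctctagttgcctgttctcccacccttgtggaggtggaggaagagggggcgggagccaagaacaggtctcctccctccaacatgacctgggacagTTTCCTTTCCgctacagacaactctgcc
The RefSeq start of Ctla4 lies within the longer span that GENCODE gives the gene. The Ctla4 promoter held 1 match, from -144 to -140 bases relative to the start, and 42.4% of its bases were G or C. The Pdcd1 promoter held a tandem pair of matches, from -28 to -24 and from -23 to -19, and 60.4% of its bases were G or C. The same letters occur in 55.6% of the 32851 mouse promoters of that length, so a match is a description of the sequence and not of binding. Of the 10 genes, 6 had a promoter in the RefSeq table. The core was also matched 4 times in the promoter of Cd96 and 2 times in that of Tigit. Those of Havcr2 and Btla held no match. None of these mRNAs was called in the comparison below. No match to an AP-1 site (TGANTCA), a forkhead site (TGTTTAC) or a TATA box (TATAAA) was found in these 250 bases of Ctla4 or Pdcd1, against 6.75%, 3.17% and 12.4% of all promoters.

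The levels of the 10 mRNAs spanned a wide range in LI Treg cells. Tigit and Ctla4 stood far above the others and together made up 78.0% to 79.9% of the summed FPKM of the 10 genes in the 4 libraries. In control cells the order was Tigit (3135 ± 150 FPKM), Ctla4 (1647 ± 76.0), Icos (627 ± 53.1) and Cd28 (245 ± 20.7), each above the next in both libraries (mean ± SD, n = 2). Pdcd1, Cd96 and Lag3 followed at 105 ± 19.3, 102 ± 3.49 and 97.1 ± 33.7 and could not be ordered, since the ranges of their libraries overlapped. Havcr2 (66.1 ± 4.62), Cd226 (20.6 ± 1.0) and Btla (12.8 ± 0.799) were lowest. Tigit ranked 24 and Ctla4 41 by mean level among the 7639 genes tested, whereas Btla ranked 5209.

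In KO cells the first 4 receptors kept this order, with Tigit at 2805 ± 222, Ctla4 at 2235 ± 106, Icos at 774 ± 51.2 and Cd28 at 202 ± 1.63 FPKM. Cd96 came next, at 100.1 ± 4.0, followed by Havcr2 (70.4 ± 1.41), Lag3 (63.0 ± 24.7) and Pdcd1 (57.9 ± 8.27). Both libraries of Havcr2 were above both of Pdcd1, and the wide range of Lag3 overlapped each of them. Cd226 (27.2 ± 0.629) and Btla (12.7 ± 0.778) were again lowest. The summed FPKM of the 3 costimulatory receptors was 870 and 915 in the control libraries and 968 and 1038 in the KO libraries. The sum of the 7 coinhibitory receptors was 5180 and 5151 in the control libraries against 5446 and 5243 in the KO libraries. Both sums were higher in each KO library than in either control library, but the genes within each sum did not share a direction. Of the coinhibitory receptors, Ctla4 and Havcr2 were higher in both KO libraries, and Tigit and Pdcd1 were lower in both. Of the costimulatory receptors, Icos and Cd226 were higher in both and Cd28 was lower in both. In FPKM the rises were mostly those of Ctla4 (mean 1647 in control and 2235 in KO) and Icos (627 and 774).

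**Figure D1:**
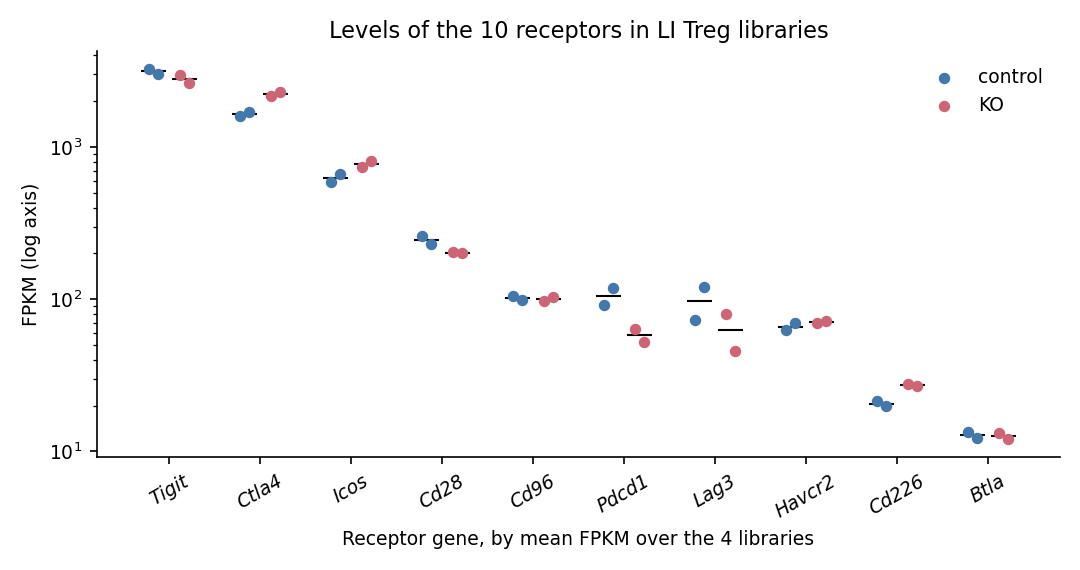
FPKM of the 10 receptor genes on a log axis, with 1 point for each control and KO library and a bar at the mean of each group. Tigit and Ctla4 lie highest and Btla lowest in all 4 libraries, the KO points of Ctla4 lie above the control points, and those of Pdcd1 lie below them.

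KO and control libraries were compared gene by gene with limma on log2(FPKM + 1), and a gene was called, or said to have risen or fallen, at an unadjusted p below 0.05, the threshold of the study. The p-values printed for single genes are adjusted by the Benjamini-Hochberg method over all genes tested. At the unadjusted threshold 3 receptor mRNAs rose in KO LI Treg cells, Ctla4, Icos and Cd226, against 8.61% of all genes tested. Pdcd1 and Cd28 fell, against 7.57% of all genes. The 5 calls among 10 genes stand beside a background of 16.2% called in either direction. After Benjamini-Hochberg adjustment over the 7639 genes none of the 10 receptors passed limma's test at an adjusted p below 0.05, which 0.589% of all genes did. The median log2 fold change of the 10 genes was -0.02, near the -0.0039 of all genes tested, so the receptors had no common direction. Their median absolute log2 fold change was 0.29 against 0.18 over all genes, both taken between means of 2 libraries. Over all genes tested, the 2 control libraries differed from each other by a median of 0.19 and the 2 KO libraries by 0.16. These last values are between single libraries, which vary more than means do, so they are not of the same measure.

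The control and KO libraries did not overlap for 7 of the 10 receptors, against 47.1% of all genes tested. Ctla4, Icos, Cd226 and Havcr2 were higher in both KO libraries (background 24.2%), and Pdcd1, Cd28 and Tigit were lower in both (background 22.9%). An exact permutation test over 2 against 2 libraries has a smallest p of 0.333, so limma's calls borrow their variance from other genes. Among the calls, Ctla4 and Pdcd1 were also made when each library was left out in turn, and Icos, Cd28 and Cd226 were not. Such a fit leaves 1 library in a group, which is assumed to vary as the 2 libraries of the other group do, so it shows how an estimate depends on 1 library and is no further support for a call. The number of higher receptors was 1 without KO 1 and 1 without KO 2, and the number of lower ones was 1 without KO 2.

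**Figure D2:**
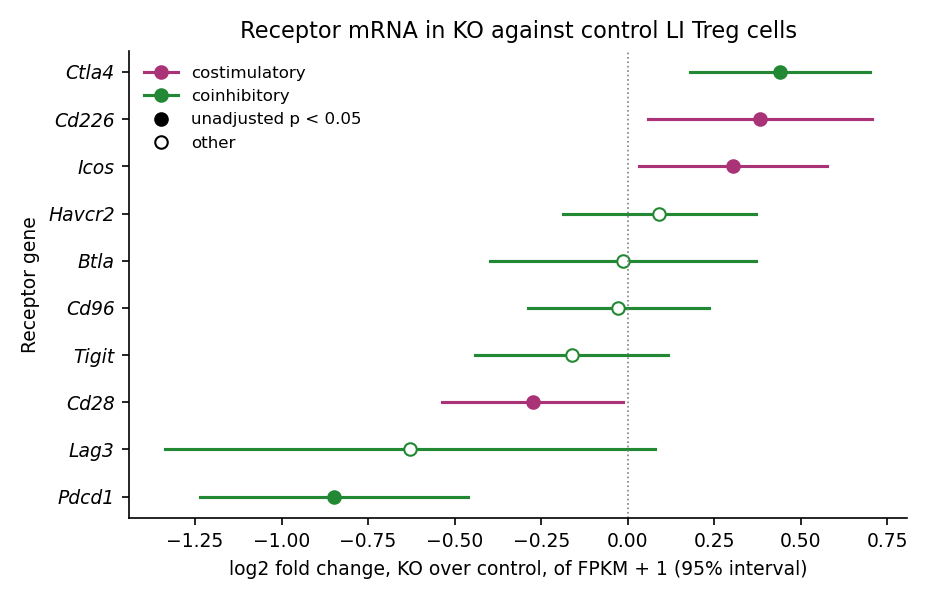
Log2 fold change (KO over control, of FPKM + 1) of each receptor gene with its 95% confidence interval from limma, in purple for costimulatory and green for coinhibitory receptors, with filled points where the unadjusted p was below 0.05. The intervals of Ctla4, Icos and Cd226 lie above 0 and those of Pdcd1 and Cd28 below it, and the interval of Lag3 is the widest.

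Ctla4 (ENSMUSG00000026011; chromosome 1, 60887000 to 60915832, + strand, GRCm38) encodes the receptor that captures CD80 and CD86. Its FPKM was 1593.26 and 1700.67 in control libraries 1 and 2 and 2159.97 and 2310.35 in KO libraries 1 and 2. The groups did not overlap, and the gap between them was wider than the distance between libraries of 1 group. The KO mean was 1.36 times the control mean, and the log2 fold change was 0.44 (SE 0.11, 95% interval 0.18 to 0.70), which was called (adjusted p = 0.132 by limma). Without any 1 of the libraries it stayed called, between 0.39 and 0.49. A processed pseudogene, Rpl18-ps1, lies within Ctla4 on the same strand and reached at most 8.59 FPKM.

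Icos (ENSMUSG00000026009; chromosome 1, 60977927 to 61000320, + strand) encodes a costimulatory receptor that supports the survival of effector Treg cells. It had an FPKM of 589.31 and 664.42 in control libraries 1 and 2 and 737.54 and 809.99 in KO libraries 1 and 2. The groups did not overlap, although control 2 and KO 1 were about as far apart as the libraries within each group. The log2 fold change was 0.30 (SE 0.12, 95% interval 0.03 to 0.58) and was called (adjusted p = 0.264 by limma). The call was lost without control 1 (log2 fold change 0.22), without KO 1 (0.37) and without KO 2 (0.24). Gm37039, an unclassified transcript within Icos on the same strand, reached at most 5.69 FPKM.

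Cd28 (ENSMUSG00000026012; chromosome 1, 60716800 to 60773359, + strand) encodes the founding costimulatory receptor, which Treg cells need for their generation and maintenance. Its FPKM was 259.64 and 230.30 in control libraries 1 and 2 and 203.14 and 200.84 in KO libraries 1 and 2. The KO libraries were nearly equal and lay below both control libraries. Its log2 fold change of -0.27 (SE 0.11, 95% interval -0.54 to -0.01) was called (adjusted p = 0.292 by limma). The call was lost without control 1 (log2 fold change -0.19), without KO 1 (-0.28) and without KO 2 (-0.27). An mRNA of a costimulatory receptor thus fell in the fit in which those of its 2 relatives rose.

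These 3 genes lie next to each other on the same strand of chromosome 1. Relative to the first base of Ctla4 in the GENCODE annotation, Cd28 begins at -170.2 kb and Icos at 90.9 kb. Of the genes before Cd28, Raph1, which encodes the actin regulator lamellipodin and begins at -404.7 kb, had an FPKM of 6.73, 8.41, 3.75 and 4.40 in control 1, control 2, KO 1 and KO 2. It fell by 0.75 on the log2 scale (adjusted p = 0.189 by limma). Abi2, at -477.4 kb, is shown only for its position and had a log2 fold change of -0.37, which was not called (adjusted p = 0.449). Along this stretch the fold changes were below 0 for the 3 tested genes up to Cd28 and above 0 for Ctla4 and Icos.

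**Figure D3:**
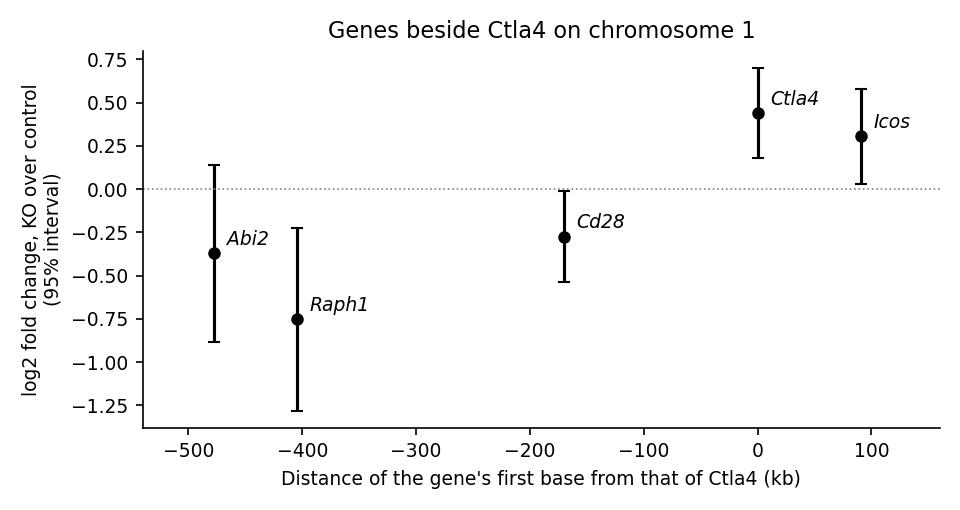
Log2 fold change (KO over control, of FPKM + 1) with 95% confidence intervals for Abi2, Raph1, Cd28, Ctla4 and Icos, against the distance in kb from the first base of Ctla4. The estimates are below 0 for Abi2, Raph1 and Cd28 and above 0 for Ctla4 and Icos.

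Pdcd1 (ENSMUSG00000026285; chromosome 1, 94038305 to 94052553, - strand) encodes PD-1, which recruits phosphatases to signals from CD28 and the T cell receptor. Its FPKM was 91.77 and 119.05 in control libraries 1 and 2 and 63.75 and 52.06 in KO libraries 1 and 2. Every KO library was below every control library. The KO mean was 0.549 times the control mean, the widest relative difference of the 10 genes. On the log2 scale the change was -0.85 (SE 0.17, 95% interval -1.24 to -0.46) and was called (adjusted p = 0.0816 by limma). Leaving out any 1 library kept the direction, with a log2 fold change of -1.03 to -0.66. The widest of these estimates came without control 1, the control library nearer to the KO libraries.

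Lag3 (ENSMUSG00000030124; chromosome 6, 124904361 to 124911705, - strand) encodes a relative of CD4 that binds MHC class II. Its FPKM was 73.29 and 120.91 in control libraries 1 and 2 and 80.41 and 45.52 in KO libraries 1 and 2. The groups overlapped, since KO 1 was above control 1. The 2 control libraries were 0.72 apart on the log2 scale and the 2 KO libraries 0.82, more than the log2 fold change of -0.63 (SE 0.30, 95% interval -1.34 to 0.08), which was not called (adjusted p = 0.362 by limma). Its estimate depended on which libraries were included. It was -0.99 without control 1 and -1.03 without KO 1, and was called in both of these fits (adjusted p = 0.156 and adjusted p = 0.312), but -0.27 without control 2 and -0.23 without KO 2, where it was not. Cd4, whose gene lies at a gap of 16.1 kb from Lag3 and which was named after its values were seen, ranked the libraries in the same order, with 162.53, 220.38, 183.42 and 130.75 FPKM in control 1, control 2, KO 1 and KO 2.

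Havcr2 (ENSMUSG00000020399; chromosome 11, 46454935 to 46481255, + strand) encodes TIM-3, which T cells share with myeloid cells. Its FPKM was 62.79 and 69.32 in control libraries 1 and 2 and 69.37 and 71.36 in KO libraries 1 and 2. The KO libraries were above the control libraries, but control 2 and KO 1 were nearly equal. Its log2 fold change was 0.09 (95% interval -0.19 to 0.37) and was not called (adjusted p = 0.766 by limma). Summed myeloid markers were 211 to 233 FPKM in control and 218 to 273 in KO libraries, with 2 of 8 below 1 FPKM in every library, and Fcgr3, an Fc receptor, rose (adjusted p = 0.180). Their part in the level of Havcr2 was not tested.

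Btla (ENSMUSG00000052013; chromosome 16, 45224315 to 45257670, + strand) encodes the receptor for the herpesvirus entry mediator and is abundant on B cells. It was the least expressed of the 10 genes, with 13.37 and 12.24 in control libraries 1 and 2 and 13.22 and 12.12 in KO libraries 1 and 2. The groups overlapped almost fully. Its log2 fold change of -0.01 (95% interval -0.40 to 0.37) was not called (adjusted p = 0.980 by limma). The interval leaves room for a change in either direction as large as that of Icos. The B and plasma cell markers summed to overlapping ranges in the groups, as given above.

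Tigit (ENSMUSG00000071552; chromosome 16, 43648867 to 43664146, - strand) encodes an inhibitory receptor for the poliovirus receptor that marks highly suppressive Treg cells. Its FPKM was 3240.85 and 3029.05 in control libraries 1 and 2 and 2962.10 and 2648.72 in KO libraries 1 and 2. Both KO libraries were below both control libraries, but KO 1 was closer to control 2 than the libraries of either group were to each other. Its log2 fold change of -0.16 (SE 0.12, 95% interval -0.44 to 0.12) was not called (adjusted p = 0.552 by limma). Because the 4 libraries share 1 distribution of values, an FPKM this high stands for a rank near the top of the library, and values recur between genes. The FPKM of Tigit in control 2 was also that of Cd2, a T cell adhesion receptor, in control 1.

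Cd96 (ENSMUSG00000022657; chromosome 16, 46035657 to 46120251, - strand) encodes another receptor for the same ligand. It had an FPKM of 104.45 and 99.51 in control libraries 1 and 2 and 97.27 and 102.93 in KO libraries 1 and 2, and the groups overlapped. Between the groups it differed by -0.03 on the log2 scale (95% interval -0.29 to 0.23), which was not called (adjusted p = 0.940 by limma).

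Cd226 (ENSMUSG00000034028; chromosome 18, 89176967 to 89272229, + strand) encodes DNAM-1, the costimulatory receptor with which TIGIT and CD96 compete. Its FPKM was 21.34 and 19.92 in control libraries 1 and 2 and 27.62 and 26.73 in KO libraries 1 and 2. The groups did not overlap, and libraries of 1 group were close to each other. On the log2 scale the change was 0.38 (SE 0.14, 95% interval 0.06 to 0.71) and was called (adjusted p = 0.242 by limma). The call was lost without control 2 (log2 fold change 0.33), without KO 1 (0.36) and without KO 2 (0.40). Cytotoxic lymphocytes also carry DNAM-1, and the summed markers of CD8 T, NK and gamma-delta T cells were 11.8 to 14.9 FPKM in control and 19.9 to 21.8 in KO libraries. Of these 9 markers, 4 were below 1 FPKM in every library, Cd8a and Ncr1 among them. The higher sum lay mostly in Tcrg-C1 (6.84 and 6.79 in control against 10.96 and 12.24 in KO libraries) and Klrk1 (1.18 and 0.54 against 2.71 and 3.57). Prf1 was slightly higher in both KO libraries (2.02 and 1.19 against 2.13 and 2.04), and the groups overlapped for Cd8b1 and Trdc. The part of such cells in the level of Cd226 was not tested.

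Ratios within a library compare receptors that share ligands or lie in the same gene cluster. A single scale factor per library cancels in them, but the step that gave the 4 libraries a common distribution does not. The Ctla4 to Cd28 ratio was 6.14 and 7.38 in control libraries 1 and 2 and 10.6 and 11.5 in KO libraries 1 and 2. The balance of transcripts thus lay further toward the inhibitory receptor in both KO libraries, by 1.64 times or a log2 difference of 0.72. The Icos to Cd28 ratio was 2.27 and 2.89 in the control libraries and 3.63 and 4.03 in the KO libraries, 1.5 times as high. The Ctla4 to Icos ratio moved less, with 2.70 and 2.56 in the control libraries and 2.93 and 2.85 in the KO libraries, 1.10 times as high.

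In the poliovirus receptor group the balance lay the opposite way. The Tigit to Cd226 ratio was 152 in both control libraries and 107 and 99.1 in the KO libraries, a log2 difference of -0.56. The Cd96 to Cd226 ratio was 4.89 and 5.00 in the control libraries and 3.52 and 3.85 in the KO libraries, a log2 difference of -0.43. In both ratios the denominator was the receptor that had risen. The Tigit to Cd96 ratio, between the inhibitory receptors, was 31.0, 30.4, 30.5 and 25.7 in control 1, control 2, KO 1 and KO 2, and the groups overlapped. Of the 6 ratios compared, 5 did not overlap between the groups, each with p = 0.333 in the two-sided exact permutation test. This is the smallest p that 4 libraries allow, so none could pass. No share over other pairs of genes was computed, and 47.1% of all single genes tested did not overlap. The Ctla4 to Cd28, Icos to Cd28 and Tigit to Cd226 ratios pair receptors that were already apart in opposite directions. Their lack of overlap follows from that and is no further result.

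**Figure D4:**
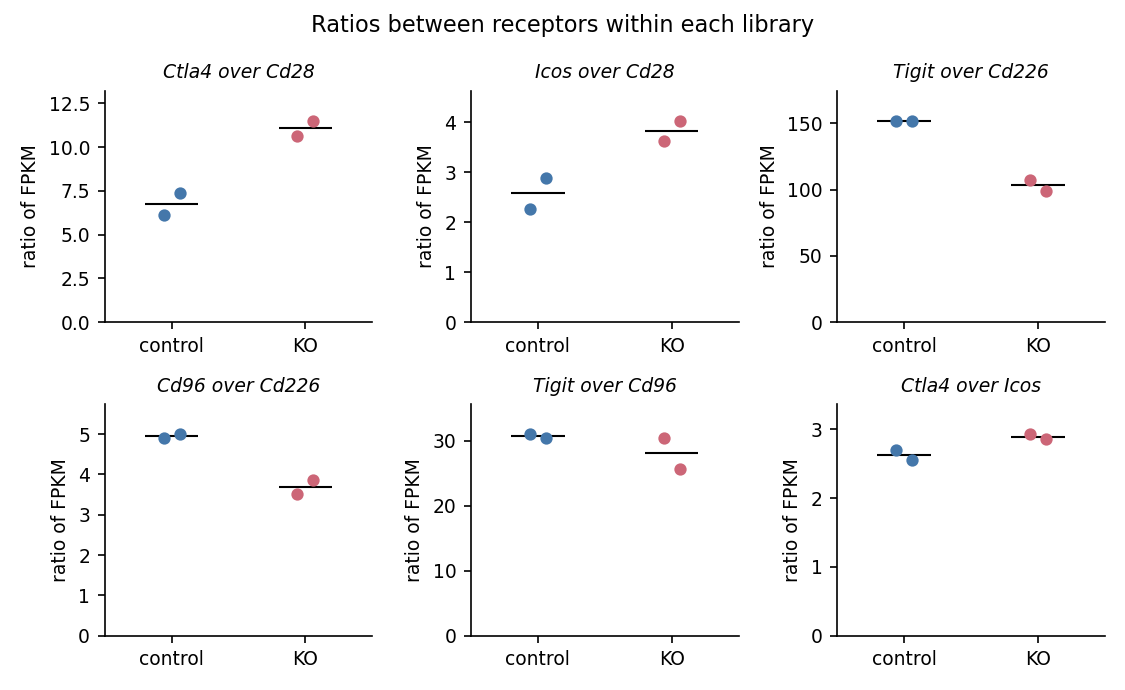
Ratio of FPKM within each library for 6 pairs of receptors, with 1 point for each library and a bar at the mean of each group. The Ctla4 to Cd28 and Icos to Cd28 ratios are higher in both KO libraries, the Tigit to Cd226 and Cd96 to Cd226 ratios are lower in both, and the Tigit to Cd96 ratios of the groups overlap.

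Genes that act with the receptors were examined as 6 lists with 86 names, of which 85 were in the table and 67 were tested. Of these, 7 rose and 5 fell, or 17.9%, close to the 16.2% of all genes, and none had an adjusted p below 0.05 by limma. The number that rose was 4 without control 2, 2 without KO 1 and 2 without KO 2, and the number that fell was 9 without control 1 and 2 without KO 2. The median log2 fold change over the 67 genes was 0.01. The adjusted p of the 12 genes called lay between 0.144 and 0.307.

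Of 14 ligands, 6 were tested and 1 rose, with a median log2 fold change of -0.05. The gene was Lgals3, which encodes galectin-3, a lectin that binds LAG-3. Its FPKM was 47.46 and 61.79 in the control and 78.38 and 83.17 in the KO libraries, a log2 fold change of 0.57 (adjusted p = 0.147 by limma). The highest ligand was Lgals9, a lectin that binds TIM-3, with 101.62, 113.52, 137.80 and 112.14 FPKM in control 1, control 2, KO 1 and KO 2. The groups overlapped for it. The ligands of CTLA-4 and CD28 were present in these sorted cells, Cd86 at 27.88 to 40.84 FPKM with both KO libraries below both control libraries (log2 fold change -0.30, not called, adjusted p = 0.391), and Cd80 at 1.60 to 3.17, too low to be tested. The PD-1 ligands Cd274 (67.07 to 74.22 FPKM) and Pdcd1lg2 (11.80 to 14.62) overlapped between the groups. Icosl lay between 0.48 and 2.01 and was not tested. Pvr, the poliovirus receptor itself, lay between 38.05 and 49.33 FPKM with a log2 fold change of -0.20 that was not called (adjusted p = 0.527). The sorted cells thus held mRNA of several ligands of these receptors, beside the myeloid and B cell markers given above, whose part in these levels was not tested.

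Of 22 other Ig-family receptors of T cells, 15 were tested, and 2 rose and 2 fell. Pvrig, an inhibitory receptor for a ligand related to the poliovirus receptor, had an FPKM of 7.36, 11.09, 12.59 and 15.86 in control 1, control 2, KO 1 and KO 2 (log2 fold change 0.59, adjusted p = 0.272). Cd48, a ligand and adhesion receptor of the SLAM family, had 62.62, 67.66, 79.32 and 78.38 (log2 fold change 0.27, adjusted p = 0.307). Both were higher in each KO library than in either control library. Cd200, which encodes a ligand that restrains myeloid cells, had 43.59, 37.27, 28.80 and 25.77 (log2 fold change -0.55, adjusted p = 0.144). Cd160, a further receptor for the herpesvirus entry mediator, had 6.56, 4.85, 3.72 and 3.07 (log2 fold change -0.60, adjusted p = 0.302). Cd2 was the highest of the list, at 2459.97 to 3029.05 FPKM, and its groups overlapped.

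Of 21 kinases, phosphatases and adaptors that act at the tails of the receptors, 20 were tested. Of these 3 rose, none fell, and the median log2 fold change was 0.08. Grap2, an adaptor that binds CD28, had an FPKM of 21.69, 26.09, 32.84 and 31.17 in control 1, control 2, KO 1 and KO 2 (log2 fold change 0.41, adjusted p = 0.242). Prkcq, the kinase PKC-theta that CD28 brings to the contact with the antigen-presenting cell, had 29.25, 28.72, 37.25 and 36.08 (log2 fold change 0.33, adjusted p = 0.270). Both were higher in each KO library than in either control library, and the list as a whole was called at 15.0%, near the background of 16.2%. Lck, the most abundant of the list, had 643.31, 676.87, 813.41 and 682.88 FPKM (log2 fold change 0.18, not called, adjusted p = 0.530).

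CTLA-4 protein is held in vesicles and cycles rapidly, so genes of its transport were listed with the proteases that shed receptors. Of 11 such genes 10 were tested, 1 rose and 1 fell. Rab8a, a GTPase that carries CTLA-4 to the surface, had an FPKM of 103.20, 101.00, 146.92 and 114.13 in control 1, control 2, KO 1 and KO 2 (log2 fold change 0.34, adjusted p = 0.303), with KO 1 far above KO 2. Trat1, the adaptor TRIM that binds CTLA-4 in the same transport step, had 85.49, 83.01, 63.32 and 65.51 (log2 fold change -0.38, adjusted p = 0.184). The mRNAs of 2 partners in 1 transport step thus moved in opposite directions. Arf1 was the most abundant, at 308.95 to 460.81 FPKM, and its groups overlapped. The 3 decay factors known to act on Icos mRNA were all tested, and none was called. Their log2 fold changes were -0.04 for Rc3h1, -0.47 for Rc3h2 and -0.40 for Zc3h12a, which is also the median. The highest of them, Zc3h12a, which encodes the nuclease Regnase-1, lay between 17.05 and 31.05 FPKM with overlapping groups (adjusted p = 0.418).

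Of 15 genes of transcription factors and a cytokine receptor tied to coinhibitory receptors, 13 were tested, none rose and 2 fell. Tox, a factor known for sustaining PD-1 in exhausted T cells, had an FPKM of 123.74, 121.24, 91.06 and 99.47 in control 1, control 2, KO 1 and KO 2 (log2 fold change -0.36, adjusted p = 0.205). Nr4a3, a factor induced by signals from the T cell receptor, had 12.38, 13.33, 8.67 and 8.56 (log2 fold change -0.53, adjusted p = 0.216). For both genes each KO library was below each control library, as for Pdcd1 and for 22.9% of all genes tested. The list as a whole was called at 15.4%, near the background of 16.2%. Batf, the most abundant of the list and a factor of effector Treg cells, had 365.09, 395.65, 415.43 and 485.50 FPKM (log2 fold change 0.24, not called, adjusted p = 0.383), with both KO libraries above both control libraries.

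**Figure D5:**
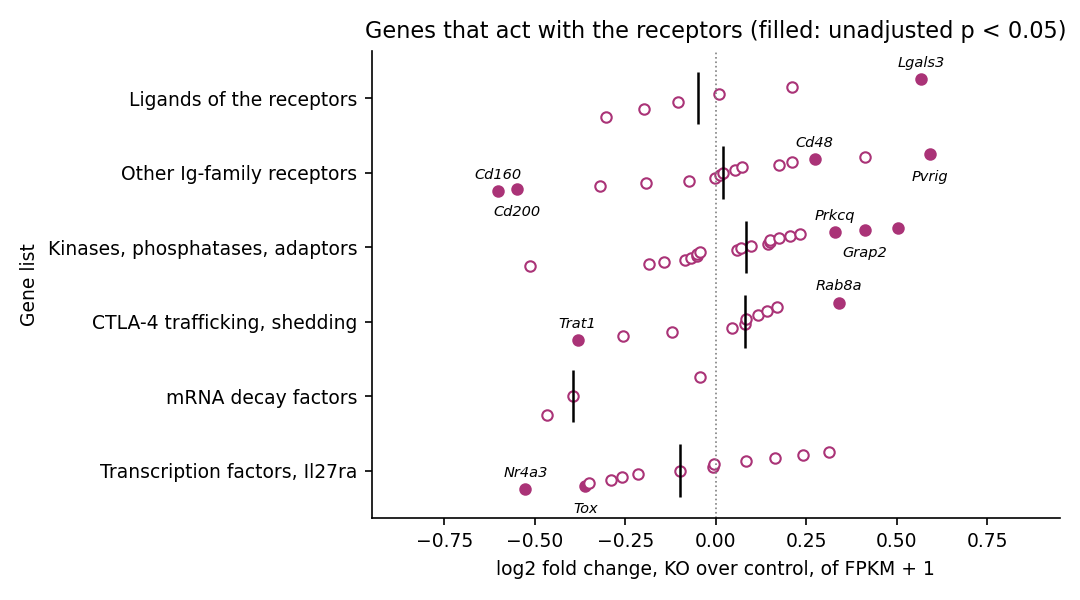
Log2 fold change (KO over control, of FPKM + 1) of each tested gene in 6 lists of genes that act with the receptors, with a bar at the median of the list. Filled points have an unadjusted p below 0.05 and carry the name of each gene described in the text: 7 lie above 0 and 5 below it, and the medians of the lists lie between -0.40 and 0.08.

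The protein-coding genes next to the receptors on their chromosomes, 3 on each side, came to 48 once the receptors themselves were left out, and 19 were tested. Of these 1 rose and 3 fell, against 8.61% and 7.57% of all genes tested. Cd200, next to Btla, and Raph1 are described above. Qtrt2, a subunit of the enzyme that puts queuine into transfer RNA and a neighbour of Tigit, had an FPKM of 6.57, 4.14, 1.71 and 2.97 in control 1, control 2, KO 1 and KO 2 (log2 fold change -0.93, adjusted p = 0.226). St8sia4, a polysialyltransferase gene on the far side of a gap of 1535 kb from Pdcd1, had 16.26, 15.00, 20.85 and 21.96 (log2 fold change 0.43, adjusted p = 0.226), the opposite direction to Pdcd1. Neighbours of Lag3, Havcr2, Cd96 and Cd226 that were tested gave no call.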

How the data were processed

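LI Treg cells were profiled in 2 control and 2 KO libraries. Read pairs (150 bp) were aligned by the authors to GRCm38 using STAR 2.5, and RSEM 1.2 gave the level of each gene. They deposited FPKM rounded to 2 decimals, and the 4 columns share 1 distribution of values, a step the sources used here do not name. Library depth cannot be recovered, so no counting interval was computed. A shared distribution also hides any change in total mRNA per cell.

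Protein-coding genes (GENCODE M21) whose mean FPKM was above 5 in the control or the KO group were fitted with limma 3.58.1 in R 4.3.3 on log2(FPKM + 1), with a trend in the empirical Bayes step and no covariate, with Benjamini-Hochberg adjustment over 7639 genes. Adding 1 understates the change of low genes. The fit was tested on simulated data of 7639 genes, 200 of them changed by a log2 fold change of 1. At an adjusted p below 0.05 by limma, 95.0% of the changed genes were recovered. The noise was drawn independently for each library with the fit's own variances, and the change was larger than that of any receptor. The simulation therefore does not give the power for the smaller changes of the receptors. Receptor ratios were compared by exact permutation. Tables and figures used Python 3.11.15, pandas 2.3.3, numpy 2.4.6 and matplotlib 3.10.9. Splenic libraries were not analysed here.

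The receptors, the lists and the tests were chosen with earlier results of these data known. Named beside the receptors were genes of each list with p below 0.05, its highest gene, direct partners, and chromosomal neighbours with p below 0.05. The values of 1 gene that this rule covers are not reported here. Promoters came from RefSeq (GRCm38.p6). Alternatives were a pseudocount of 0.1 or 5, an FPKM minimum of 1 or none, all gene types, median centring, no trend, the replicate number as a block, and each library left out in turn.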

Additional observations from a re-analysis of the deposited data

How the results depend on the processing

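Ctla4 and Pdcd1 were called under every alternative listed above and with each library left out. With every gene above 0 fitted, 4 of the partner genes rose, and with all gene types also 4, against 7 as reported. Without the trend 1 of the 10 receptors fell, against 2, and Icos and Cd28 lost their calls. Icos was also lost with no filter. With each library left out in turn, which leaves 1 library in a group and takes the spread from the other, 1 to 2 receptors rose, 1 to 2 fell and 0 to 1 passed the adjusted threshold, and 2 to 5 partner genes rose and 2 to 9 fell. The log2 fold change of Btla lay between -0.073 and 0.045, above 0 without control 1 (0.045) and without KO 2 (0.044), and that of Cd96 between -0.067 and 0.014, above 0 without control 1 (0.0079) and without KO 1 (0.014). Over all genes the 658 higher, 578 lower and 45 adjusted calls became 1170, 776 and 0 with no filter, 616, 555 and 3 without the trend, 659, 556 and 13 with all gene types, and 827, 712 and 27 with an FPKM minimum of 1. Without KO 1 they were 406, 438 and 2, and without KO 2 330, 314 and 3. The cause of these shifts was not tested.

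Same-numbered libraries shared only a number (their deviations from the group means had r = -0.305), so the pairing is not known. With the replicate number as a block, 2 receptors rose, 1 fell, Cd28 and Cd226 lost their calls, 2 partner genes rose and 3 fell, and all genes gave 419, 377 and 27 calls. A crossed pairing, chosen after seeing the data, gave 3 and 3 receptors and 2 adjusted, 8 and 11 partner genes and 2 adjusted, and 1008, 983 and 465 calls over all genes. The unknown depth limits the low values most, those of Cd226, Btla, Cd160 and Qtrt2.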
